A study of Mus musculus with 24 samples.

Results

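The genes described here are 10 members of the TGF-β pathway, taken by name from the 55421 Ensembl mouse genes of the count table. They are the ligands Tgfb1, Tgfb2, and Tgfb3, the receptors Tgfbr1, Tgfbr2, and Tgfbr3, the activators Itgb6 and Thbs1, and the feedback regulators Smad7 and Skil. The rule that names them uses no measured value, but the members and the gene lists were chosen with earlier results of these data known. Type 2 alveolar epithelial cells (AEC2s), the surfactant-making progenitors of the alveolus, were obtained from Krt8+/+ (WT) mice and from mice lacking Krt8 in every tissue (Krt8-/-). Fresh cells (day 0) and cells kept in 2D culture until day 1, 3, or 7 were sequenced, in 24 libraries that form 8 groups of genotype and day with 3 replicates each. Each replicate number stands for 1 numeric code at the end of the sample titles, which covers both genotypes and all 4 days. The titles do not say what the code means. Krt8 encodes a keratin of simple epithelia, and its loss was not limited to AECs. The labels give neither the age nor the number of mice behind a library.

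TGF-β ligands are secreted in a latent form, held by a propeptide and by latent TGF-β–binding proteins, and must be released before they can act. Integrin αvβ6, which carries the β6 chain encoded by Itgb6 on epithelial cells, and thrombospondin-1, encoded by Thbs1, are among the activators of latent TGF-β. They need not act on every ligand alike, and release of ligand was not measured here. Active ligand is bound by the type II receptor (Tgfbr2), which recruits and phosphorylates the type I receptor kinase (Tgfbr1), with betaglycan (Tgfbr3) as a co-receptor. The receptors phosphorylate SMAD2 and SMAD3, and the resulting complexes induce genes that restrain the signal, among them Smad7, which blocks the type I receptor, and Skil, which encodes the SMAD corepressor SnoN. In the lung, this pathway is known for its part in epithelial differentiation and in fibrosis.

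Total counts per library ranged from 10184439 to 19483386. Krt8+/+ cells held 523 ± 34.6 CPM (counts scaled to a common library total; SD, n = 3) of Krt8 on day 0 and 4026 ± 1067 CPM on day 7, whereas Krt8-/- cells held 29.5 ± 7.73 and 30.2 ± 4.23 CPM, as their labels state. The summed level of 9 AEC2 markers was between 231000 and 309000 CPM in the fresh cells of both genotypes and between 189 and 289 CPM on day 7, while 6 markers of the transitional state, Krt8 among them, went from 1100–1270 CPM on day 0 to 10000–16400 CPM on day 7 in Krt8+/+ cells. On day 1, the AEC2 sum was 15200 CPM (Krt8+/+) and 14400 CPM (Krt8-/-) in replicate 2, against 64000 to 89000 CPM in the other replicates. The 8 fibroblast markers, none at 0 in any group, had sums of 295–993, 143–261, 1000–1790, and 898–1910 CPM in the Krt8+/+ libraries of days 0, 1, 3, and 7. In Krt8-/- libraries these sums were 333–731, 98.1–183, 632–1310, and 834–3180 CPM, with the highest in replicate 3 on day 7. The 4 mesothelial markers, also all counted, summed to 66.2–205 CPM on day 0 and 987–1870 CPM on day 7 in Krt8+/+ libraries. These bulk libraries cannot tell a change in the share of a cell type from a change in RNA per cell. Transcripts of Y-linked genes were at 173 to 191 CPM in the Krt8-/- libraries of replicate 1. The Krt8+/+ libraries of that replicate held at most 0.44 CPM. Genotype and the sex of the mice thus differed together there, whereas both genotypes matched in replicates 2 and 3. Xist, a transcript of female cells, was at 5.91 to 11.9 CPM in the Krt8-/- libraries of replicate 1 and at most 2.24 CPM in replicate 3. Whether those Krt8-/- libraries held cells of both sexes was not tested.

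All 10 members passed the filter on low counts, and they were tested among 18046 genes with edgeR's quasi-likelihood test and Benjamini-Hochberg adjustment, with a threshold of 0.05. Of the 10, 5 were higher and 1 was lower on day 1 than on day 0 in Krt8+/+ AECs, where 26.2% of all tested genes were higher and 28.5% lower. From day 1 to day 3, 7 members were higher and 0 lower, beside 14.4% and 11.9% of all genes. From day 3 to day 7, 1 was higher and 0 lower, beside 3.11% and 3.47%. Day 7 compared with day 0 had 7 higher and 0 lower members, beside 28.6% and 30.2% of all genes. The same 4 comparisons in Krt8-/- AECs gave 5 higher and 1 lower (23.7% and 26.9% of all genes), 7 and 0 (13.4% and 10.2%), 1 and 1 (4.4% and 6.15%), and 7 and 0 (28.6% and 29.9%). The median log2 change of the members on day 7 compared with day 0 in Krt8+/+ AECs was 1.38, and that of all tested genes was 0.00. Adjacent comparisons share the libraries of the day between them, and the Krt8+/+ and Krt8-/- series do not share libraries. Removal of 1 replicate from all groups lowered the count for day 3 compared with day 1 to 4 in Krt8+/+ AECs (without replicate 2) and to 4 in Krt8-/- AECs (without replicate 3). The call between days 3 and 7 in Krt8+/+ AECs was lost without any 1 of the 3 replicates.

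**Figure D1:**
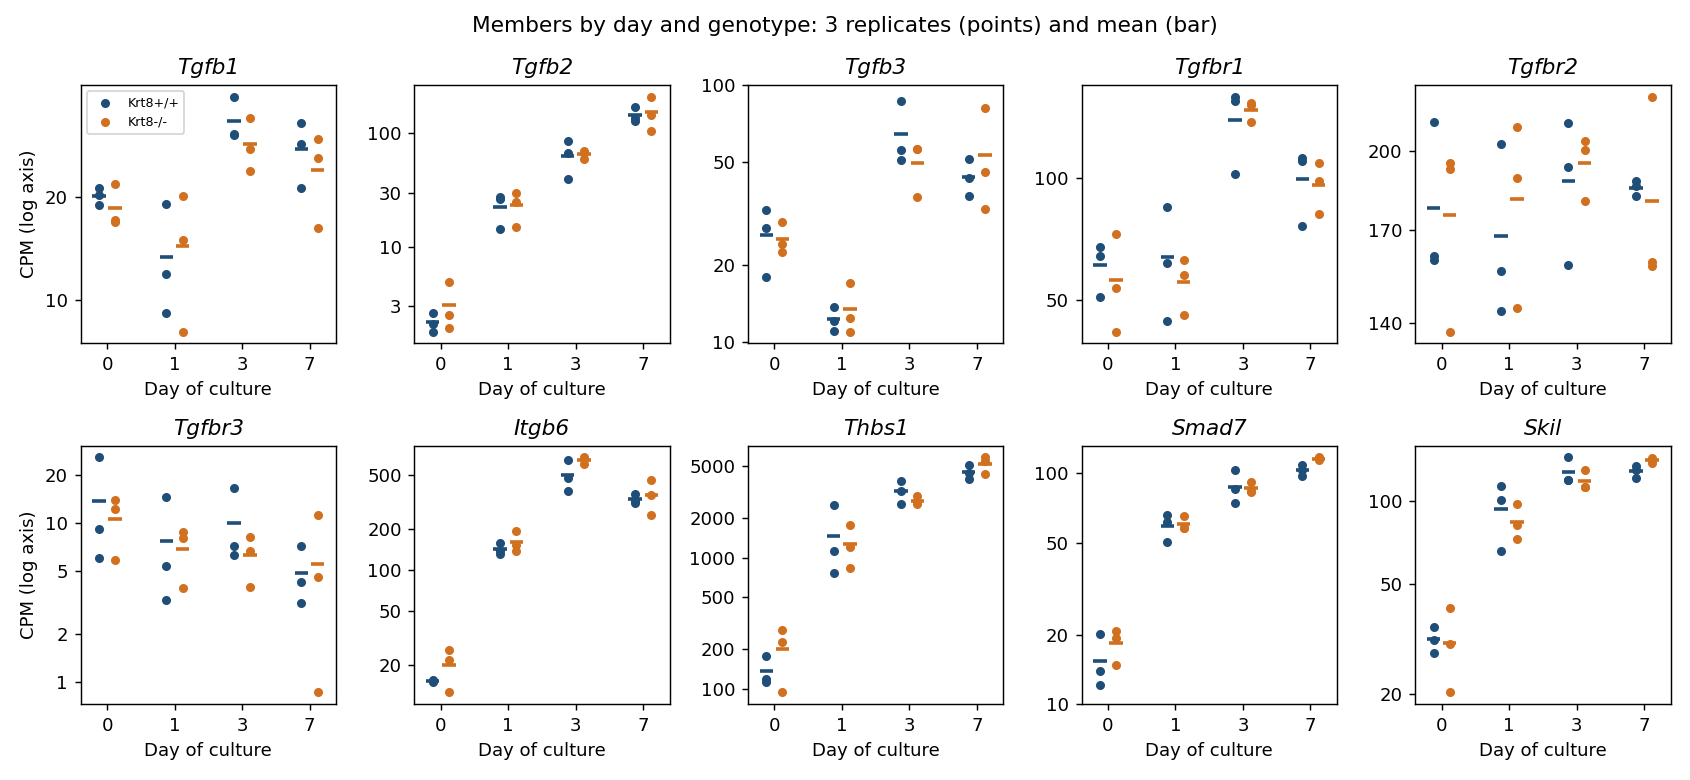
CPM (log axis, with its own scale in each panel) of the 10 members against the day of culture, in Krt8+/+ (blue) and Krt8-/- (orange) AECs. Points are the 3 replicates and bars their mean. Tgfb2, Itgb6, Thbs1, Smad7, and Skil sat higher on day 7 than on day 0 in every library of both genotypes, and Tgfbr2 stayed between 138 and 224 CPM throughout.

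Among the ligands, Tgfb2 rose at every step, and Tgfb3 fell on day 1 before it rose on day 3. Tgfb2 (ENSMUSG00000039239, chromosome 1, 186622792 to 186705989 of GRCm38, minus strand) had a low RNA level in fresh cells. In Krt8+/+ AECs from replicates 1, 2, and 3, it was at 2.60, 2.06, and 1.77 CPM on day 0 and at 14.3, 26.1, and 27.1 CPM on day 1. It reached 39.3, 84.9, and 66.9 CPM on day 3 and 136, 169.9, and 128 CPM on day 7. No library of a later day overlapped with an earlier day. Day 1 exceeded day 0 by a log2 change of 3.36 (standard error 0.39, edgeR adjusted p = 5.89e-07), day 3 exceeded day 1 by 1.5 (0.32, adjusted p = 0.00194), and day 7 exceeded day 3 by 1.18 (0.32, adjusted p = 0.0265). Over the whole culture, Tgfb2 was 65.8-fold higher on day 7, a log2 change of 6.04 (95% interval 5.17 to 6.91). The fold rests on 16 to 41 counts per library on day 0. The exons of Tgfb2 share 124 bases with a predicted gene on the other strand. Without replicate 1, 2, or 3, the step from day 3 to day 7 was 0.97, 1.3, or 1.3, with adjusted p = 0.0795, 0.12, and 0.141.

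Tgfb2 in Krt8-/- AECs went through 4.82, 1.92, and 2.47 CPM on day 0, 14.8, 29.9, and 25.0 CPM on day 1, 59.3, 67.6, and 70.2 CPM on day 3, and 144, 211, and 106 CPM on day 7. Again the days did not overlap. Its log2 change was 2.89 on day 1 (edgeR adjusted p = 2.25e-06), 1.5 from day 1 to day 3 (adjusted p = 0.00229), and 1.22 from day 3 to day 7 (adjusted p = 0.0154), and it was 5.61 (95% interval 4.78 to 6.45) on day 7 compared with day 0. Without replicate 2 or 3, the last step was 0.95 or 1.48, with adjusted p = 0.178 and 0.0775. The 4 mesothelial markers rose over the same days, and their summed level had a Pearson r of 0.957 with Tgfb2 over the 24 libraries on the log2 scale. With the AEC2 and transitional sums, Tgfb2 had an r of −0.941 and 0.903. Itgb6 had an r of 0.9 with the mesothelial sum and of 0.92 with the transitional sum. The transitional sum includes Krt8, which is low in Krt8-/- libraries by genotype, so its r cannot be ranked against the others. The part of mesothelial cells in the Tgfb2 level was not tested.

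The stretch before the Tgfb2 start site is shown because this ligand had the largest log2 change of the members from day 0 to day 7 in both genotypes. The window holds 250 bases before and 50 bases from the start of the RefSeq gene (GRCm38.p6, chr1:186705940-186706239, minus strand), 5′ to 3′, with capitals for CAGAC, the SMAD-binding element searched on both strands.

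Tgfb2: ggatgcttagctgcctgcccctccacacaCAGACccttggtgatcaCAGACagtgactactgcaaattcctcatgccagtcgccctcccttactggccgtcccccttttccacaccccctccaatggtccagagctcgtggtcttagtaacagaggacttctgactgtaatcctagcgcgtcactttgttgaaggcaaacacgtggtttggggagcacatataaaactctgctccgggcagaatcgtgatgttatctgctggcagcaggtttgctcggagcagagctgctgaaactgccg

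CAGAC occurred at 2 places in this window, and 49.6% of 32851 mouse promoter windows of the same length held at least 1. Neither the AP-1 site TGANTCA nor the TEAD site GGAATG was present, and these occurred in 7.81% and 14.7% of all windows.

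Tgfb3 (ENSMUSG00000021253, chromosome 12, 86056745 to 86079041, minus strand) was the only member that passed the threshold as lower on day 1. The Krt8+/+ libraries held 32.7, 27.8, and 17.9 CPM on day 0 and 12.1, 13.7, and 11.1 CPM on day 1. On day 3 they held 86.3, 55.8, and 51.0 CPM, and on day 7 43.5, 37.0, and 51.5 CPM. Day 1 lay below day 0 in every library, and day 3 lay above both. The change on the log2 scale was −1.09 on day 1 (standard error 0.30, edgeR adjusted p = 0.0041), 2.39 from day 1 to day 3 (0.30, adjusted p = 1.28e-05), and 0.75 on day 7 compared with day 0 (0.29, adjusted p = 0.032). The fall on day 1 without replicate 2 was −1.05 (adjusted p = 0.0606). The difference between day 7 and day 0 was 0.97 without replicate 2 (adjusted p = 0.0628) and 0.41 without replicate 3 (adjusted p = 0.2).

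The Krt8-/- libraries also had their lowest levels on day 1 but their highest mean on day 7, with 29.2, 22.5, and 24 CPM of Tgfb3 on day 0, 10.9, 16.9, and 12.4 CPM on day 1, 56.4, 56.3, and 36.6 CPM on day 3, and 33.0, 45.8, and 81.2 CPM on day 7. Its log2 change was −0.91 on day 1 (edgeR adjusted p = 0.0147), 1.89 from day 1 to day 3 (adjusted p = 0.000138), and 1.08 on day 7 compared with day 0 (adjusted p = 0.00324). The fall on day 1 was −0.66 without replicate 1 (adjusted p = 0.118) and −1.10 without replicate 2 (adjusted p = 0.0542), and the difference between day 7 and day 0 was 0.61 without replicate 3 (adjusted p = 0.0703). Replicate 3 on day 7, at 81.2 CPM, was also the library with the highest fibroblast sum, 3180 CPM. Across the 24 libraries, Tgfb3 and the fibroblast sum had a Pearson r of 0.946. Col1a2, which encodes a chain of type I collagen, was 1 of the 2 genes most like Tgfb3 (r = 0.943 over 24 libraries). Col1a2 is itself part of the fibroblast sum, so these values are not independent. The part of fibroblast RNA in the Tgfb3 level was not tested. The exons of Tgfb3 share 420 bases with 2 predicted genes on the other strand, and whether counting used the strand is not given in the sources used here.

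Tgfb1 (ENSMUSG00000002603, chromosome 7, 25687002 to 25705077, plus strand) moved least among the ligands. It was at 20.3, 21.3, and 19 CPM on day 0, 19.2, 11.9, and 9.16 CPM on day 1, 39.4, 30.4, and 30.6 CPM on day 3, and 33.0, 21.4, and 28.7 CPM on day 7 in Krt8+/+ AECs. The values of day 1 reached into those of day 0, and all of day 3 lay above both. The log2 change was −0.59 on day 1 (edgeR adjusted p = 0.0969, lower in 3 of 3 replicates), 1.32 from day 1 to day 3 (adjusted p = 0.00259), and 0.46 on day 7 compared with day 0 (95% interval −0.15 to 1.06, adjusted p = 0.186). Krt8-/- AECs had 21.9, 17.0, and 17.1 CPM on day 0, 15, 20.2, and 8.09 CPM on day 1, 27.8, 34.1, and 23.9 CPM on day 3, and 29.7, 16.3, and 26.1 CPM on day 7. Here the changes were −0.37 on day 1 (adjusted p = 0.305), 0.99 from day 1 to day 3 (adjusted p = 0.0198), and 0.36 on day 7 compared with day 0 (adjusted p = 0.299). The rise on day 3 in Krt8-/- AECs was 1.03 without replicate 1 (adjusted p = 0.092) and 0.81 without replicate 3 (adjusted p = 0.133). Its Pearson r with the fibroblast sum was 0.832 over 24 libraries.

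The order of the ligands changed over the culture. To compare levels between genes, CPM was divided by the total exon length in kilobases (kb), and each ligand was expressed as a percentage of the sum of the 3. That length joins all annotated exons of a gene, 5042, 5791, and 3383 bases for Tgfb1, Tgfb2, and Tgfb3. Where the main transcript is shorter, the share of that gene is understated. No other length was tried, so shares and orders between genes hold for these lengths only. In Krt8+/+ AECs on day 0, Tgfb3 made up 63.0% ± 5.99 (SD, n = 3) of the ligand transcripts, Tgfb1 33.9% ± 5.90, and Tgfb2 3.07% ± 0.263. On day 7, Tgfb2 made up 57.4% ± 7.58, Tgfb3 30.0% ± 5.35, and Tgfb1 12.7% ± 2.93. Summed over the 3 ligands, the levels of days 0, 1, 3, and 7 were 12.1 ± 2.44, 10.2 ± 0.631, 36.7 ± 3.73, and 43.5 ± 0.896 CPM per kb. The share of Tgfb2 did not overlap between day 0 and day 7 (difference 54.3 percentage points, 2-sided exact permutation p = 0.1, the smallest that 3 libraries against 3 allow). From day 1 to day 3, its share was 38.1% and then 30.6%, with overlapping libraries, since Tgfb3 rose at the same time. In Krt8-/- AECs, Tgfb2 went from 4.38% ± 1.47 on day 0 to 56.2% ± 15.6 on day 7 (difference 51.8 points, 2-sided exact permutation p = 0.1), and in replicate 3 on day 7 it was at 38.6%, below Tgfb3 at 50.6%.

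**Figure D2:**
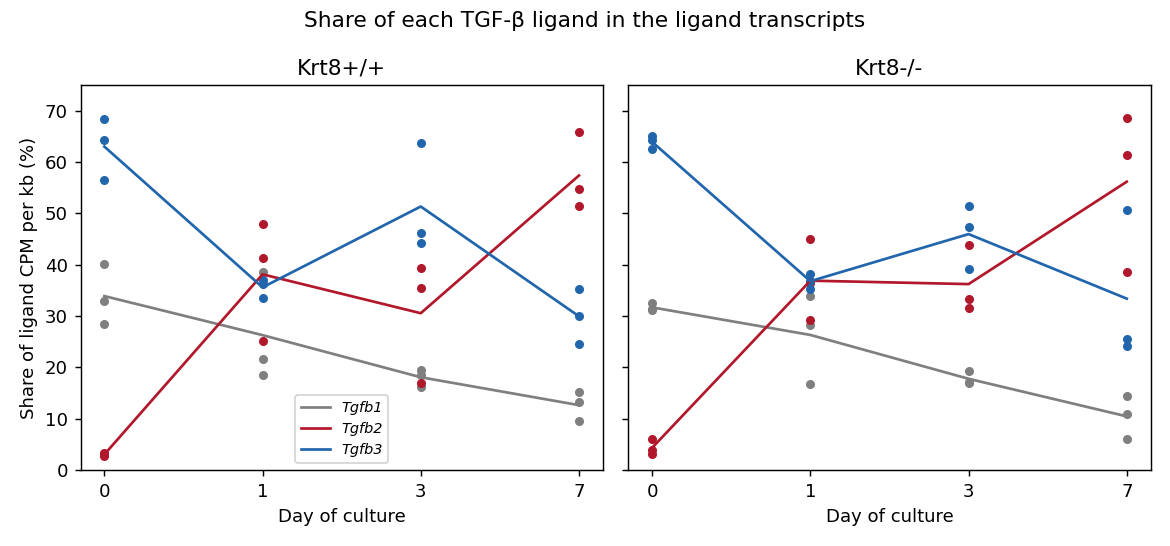
Share of each ligand in the summed CPM per kb of Tgfb1, Tgfb2, and Tgfb3 (y axis, %) by day of culture, in Krt8+/+ (left) and Krt8-/- (right) AECs. Points are the 3 replicates and lines join their means. Per kb of total exon length, Tgfb3 led on day 0 (63.0% and 63.9%) and Tgfb2 on day 7 (57.4% and 56.2%).

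Among the receptors, Tgfbr1 was the only one past the threshold between any of the days compared. Tgfbr1 (ENSMUSG00000007613, chromosome 4, 47353222 to 47414931, plus strand) was at 67.8, 51.1, and 64.3 CPM on day 0 and at 85.1, 44.4, and 61.7 CPM on day 1 in Krt8+/+ AECs, and these days overlapped. It was at 103, 159, and 155 CPM on day 3 and at 112, 110.3, and 76.4 CPM on day 7, above both earlier days except that replicate 3 on day 7 fell within the range of day 1. The log2 change from day 1 to day 3 was 1.12 (standard error 0.23, edgeR adjusted p = 0.00141), and that of day 7 compared with day 0 was 0.71 (0.23, adjusted p = 0.013). Without replicate 2, these were 0.82 (adjusted p = 0.0699) and 0.58 (adjusted p = 0.103). Krt8-/- AECs had 72.8, 53.5, and 41.8 CPM on day 0, 62.8, 46.1, and 57.8 CPM on day 1, 153, 138, and 151 CPM on day 3, and 109, 98.3, and 81.5 CPM on day 7. Every library of days 3 and 7 lay above those of days 0 and 1. Its log2 change was 1.41 from day 1 to day 3 (adjusted p = 0.000224) and 0.78 on day 7 compared with day 0 (adjusted p = 0.00694), the latter 0.71 without replicate 3 (adjusted p = 0.0643).

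Tgfbr2 (ENSMUSG00000032440, chromosome 9, 116084293 to 116175360, minus strand) held its level in CPM, which is relative to the scaled library totals and not an amount per cell. Its Krt8+/+ libraries were at 212, 159.6, and 161 CPM on day 0, 203, 144, and 156 CPM on day 1, 194, 212, and 158 CPM on day 3, and 186, 188, and 182 CPM on day 7, so that all days overlapped. The log2 change on day 7 compared with day 0 was 0.06 (95% interval −0.32 to 0.44, edgeR adjusted p = 0.787), an interval that leaves out a 1.5-fold change in either direction. In Krt8-/- AECs, where the libraries ranged from 138 to 224 CPM, it was 0.04 (95% interval −0.34 to 0.42, adjusted p = 0.866). Of the receptor transcripts per kb, Tgfbr2 made up 65.7% ± 1.94, 50.3% ± 6.35, and 58.8% ± 4.07 in the Krt8+/+ AECs of days 0, 3, and 7, and Tgfbr1 made up 28.4% ± 3.42, 46.3% ± 8.30, and 39.2% ± 5.03.

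Tgfbr3 (ENSMUSG00000029287, chromosome 5, 107106570 to 107289629, minus strand) was the scarcest receptor and the member with the widest spread. The Krt8+/+ libraries were at 25.7, 9.09, and 5.97 CPM on day 0, 14.5, 5.34, and 3.26 CPM on day 1, 16.6, 7.12, and 6.23 CPM on day 3, and 4.22, 3.15, and 7.09 CPM on day 7. Replicate 1 stood above the others on days 0, 1, and 3, and all days overlapped. The log2 change on day 7 compared with day 0 was −1.50 (95% interval −2.97 to −0.04, edgeR adjusted p = 0.0729). Without replicate 1, 2, or 3 it was −0.55, −1.42, or −2.24 (adjusted p = 0.612, 0.185, and 0.017), and DESeq2 gave −1.48 (adjusted p = 0.0488). Krt8-/- AECs had 13.9, 12.1, and 5.79 CPM on day 0 and 4.57, 0.856, and 11.2 CPM on day 7, a log2 change of −0.93 (adjusted p = 0.261). Replicate 3 ran opposite to replicates 1 and 2, and the change without replicate 1, 2, or 3 was −0.56, −0.26, or −2.23 (adjusted p = 0.606, 0.822, and 0.0192). That day 7 library was the one with the fibroblast sum of 3180 CPM. Over the 24 libraries, Tgfbr3 had a Pearson r of 0.201 with the fibroblast sum. Its highest r with any marker list was 0.664, with the sum of 6 endothelial markers. The part of these cells in the Tgfbr3 level was not tested. The exons of Tgfbr3 share 297 bases with a predicted gene on the same strand, whose reads the counting could have split.

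Both activators rose on day 1, Itgb6 by 9.35-fold and Thbs1 by 10.8-fold in Krt8+/+ AECs and by 8.10-fold and 6.35-fold in Krt8-/- AECs. Itgb6 (ENSMUSG00000026971, chromosome 2, 60598292 to 60722643, minus strand) had closely grouped libraries in fresh Krt8+/+ AECs, at 15, 15.5, and 15.3 CPM. It was at 130.5, 159, and 138 CPM on day 1, 381, 646, and 479.6 CPM on day 3, and 312, 364, and 321 CPM on day 7. Each day stood apart from the next, with the highest level on day 3. From day 1 to day 3 it rose by a log2 change of 1.82 (95% interval 1.34 to 2.3, edgeR adjusted p = 1.22e-05), after a change of 3.23 on day 1 (95% interval 2.71 to 3.74). From day 3 to day 7 the log2 change was −0.60 (95% interval −1.06 to −0.13, adjusted p = 0.127, lower in 3 of 3 replicates), and day 7 remained 21.8-fold above day 0 (log2 change 4.45, adjusted p = 4.06e-11).

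In Krt8-/- AECs, Itgb6 was at 21.6, 25.9, and 12.6 CPM on day 0, 154, 194, and 138 CPM on day 1, 655, 608, and 676 CPM on day 3, and 354, 459, and 256 CPM on day 7. It rose by 3.02 on the log2 scale on day 1 (edgeR adjusted p = 6.19e-09) and by 2.00 from day 1 to day 3 (adjusted p = 5.81e-06). It then fell by 0.86 from day 3 to day 7 (95% interval −1.33 to −0.39, adjusted p = 0.0159). That fall was −0.85 without replicate 1 (adjusted p = 0.18) and −0.63 without replicate 3 (adjusted p = 0.178). Day 7 exceeded day 0 by 4.16 (adjusted p = 7.04e-11). The fall after day 3 passed the threshold in Krt8-/- and not in Krt8+/+ AECs, and the test of the genotype difference by day gave no call for Itgb6 (adjusted p = 1).

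RefSeq gives Itgb6 a pair of start sites, and the upstream window is printed for comparison with that of Tgfb2 (GRCm38.p6, chr2:60722554-60722853, minus strand). Capitals again mark the SMAD-binding element, here read from the opposite strand as GTCTG.

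Itgb6: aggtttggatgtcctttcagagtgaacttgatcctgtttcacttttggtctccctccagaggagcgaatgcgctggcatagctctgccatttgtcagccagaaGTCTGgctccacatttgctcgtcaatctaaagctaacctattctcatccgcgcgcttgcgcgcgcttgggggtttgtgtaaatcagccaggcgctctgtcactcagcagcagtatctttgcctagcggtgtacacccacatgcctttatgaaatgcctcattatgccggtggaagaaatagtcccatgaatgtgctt

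This window held 1 such element, the other Itgb6 window (chr2:60673644-60673943, minus strand) held 0, and neither held the AP-1 or the TEAD site. Windows were at hand for 5 of the 10 members (7 windows), and 4 of these 7 held CAGAC or its reverse complement, a share of the same order as the 49.6% of all windows.

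Thbs1 (ENSMUSG00000040152, chromosome 2, 118111876 to 118127133, plus strand) was the most abundant member per kb of exon from day 1 on. In Krt8+/+ AECs it went from 22.5 ± 5.98 CPM per kb (SD, n = 3) on day 0, beside 21.7 for Tgfbr2, to 242 ± 153 CPM per kb after 1 day and 745 ± 94.1 CPM per kb by day 7. Its Krt8+/+ libraries were at 178, 119, and 112 CPM on day 0, 2523, 768, and 1116 CPM on day 1, 3224, 3859, and 2555 CPM on day 3, and 3985, 5123, and 4463 CPM on day 7. Day 1 was the most scattered, and replicate 1 there came close to the lowest library of day 3 without overlapping it. It rose by 3.43 on the log2 scale on day 1 (standard error 0.41, edgeR adjusted p = 9.38e-07) and by 1.13 from day 1 to day 3 (0.38, adjusted p = 0.0337). The second step was 0.68 without replicate 2 (adjusted p = 0.399) and 1.11 without replicate 3 (adjusted p = 0.104). The change from day 3 to day 7 was 0.49 (95% interval −0.29 to 1.28, adjusted p = 0.531), and day 7 was 33.1-fold above day 0 (log2 change 5.05, adjusted p = 8.31e-09).

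Krt8-/- AECs had 282, 226, and 93.2 CPM of Thbs1 on day 0, 1784, 1205, and 829.6 CPM on day 1, 2956, 2659, and 2576 CPM on day 3, and 4397, 5834, and 5483 CPM on day 7, with no overlap between days. The change on the log2 scale was 2.67 on day 1 (edgeR adjusted p = 1.52e-05), 1.10 from day 1 to day 3 (adjusted p = 0.0411), 0.94 from day 3 to day 7 (adjusted p = 0.127), and 4.71 on day 7 compared with day 0 (adjusted p = 1.68e-08). Without replicate 2 or 3, the change from day 1 to day 3 was 1.07 or 0.91 (adjusted p = 0.172 and 0.192). Macrophages and fibroblasts also make thrombospondin-1. The 6 macrophage markers, none at 0, had sums of 14.4–45.9, 25.2–179, 19.3–123, and 9.20–133 CPM in the Krt8+/+ libraries of days 0, 1, 3, and 7. Over the 24 libraries, Thbs1 had a Pearson r of 0.254 with the macrophage sum, 0.432 with the fibroblast sum, and 0.898 with the mesothelial sum. With the transitional sum, which includes Krt8, and the AEC2 sum, its r was 0.904 and −0.889. The part of macrophages, fibroblasts, and mesothelial cells in the Thbs1 level was not tested. The exons of Thbs1 share 208 bases with a predicted gene on the other strand.

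The feedback regulators rose together with the activators. Smad7 (ENSMUSG00000025880, chromosome 18, 75367529 to 75395935, plus strand) was at 20.1, 14.0, and 12.1 CPM on day 0, 65.7, 50.6, and 61.7 CPM on day 1, 85.3, 103, and 74.4 CPM on day 3, and 109, 104, and 97.6 CPM on day 7 in Krt8+/+ AECs. Days 0, 1, and 3 stood apart, and days 3 and 7 overlapped. The log2 change was 1.94 on day 1 (standard error 0.17, edgeR adjusted p = 1.39e-08), 0.56 from day 1 to day 3 (0.16, adjusted p = 0.0136), 0.24 from day 3 to day 7 (0.16, adjusted p = 0.454), and 2.74 on day 7 compared with day 0 (adjusted p = 9.57e-11). The step from day 1 to day 3 was 0.33 without replicate 2 (adjusted p = 0.32).

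In Krt8-/- AECs, Smad7 was at 20.8, 19.4, and 14.8 CPM on day 0, 65.1, 57.9, and 57.8 CPM on day 1, 83.3, 91.7, and 83.4 CPM on day 3, and 114, 117, and 115 CPM on day 7. Each day stood above the one before it. Its log2 change was 1.72 on day 1 (edgeR adjusted p = 6.31e-08), 0.52 from day 1 to day 3 (adjusted p = 0.024), 0.42 from day 3 to day 7 (adjusted p = 0.1), and 2.65 on day 7 compared with day 0 (adjusted p = 1.28e-10). Without replicate 1, 2, or 3, the step to day 3 was 0.60, 0.42, or 0.51 (adjusted p = 0.0577, 0.193, and 0.101). DESeq2 called the change from day 3 to day 7 (0.42, adjusted p = 0.0494).

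Skil (ENSMUSG00000027660, chromosome 3, 31095058 to 31122577, plus strand) did most of its rise within the first day. The Krt8+/+ libraries were at 35.1, 31.5, and 28.2 CPM on day 0, 113, 65.8, and 100.4 CPM on day 1, 119.5, 144, and 119 CPM on day 3, and 129, 121, and 134 CPM on day 7. Days 3 and 7 overlapped and lay above day 1, which lay above day 0. The change on the log2 scale was 1.56 on day 1 (edgeR adjusted p = 2.4e-06), 0.45 from day 1 to day 3 (95% interval 0.04 to 0.86, adjusted p = 0.0946), and 2.02 on day 7 compared with day 0 (adjusted p = 5.53e-08). Krt8-/- AECs had 40.9, 30.4, and 20.3 CPM on day 0, 97.4, 72.9, and 81.7 CPM on day 1, 129, 112, and 113 CPM on day 3, and 143, 140.5, and 138 CPM on day 7. Here the changes were 1.46 (adjusted p = 5.84e-06), 0.49 (adjusted p = 0.0758), and 2.20 (adjusted p = 1.74e-08). With the replicate number as a block, the step from day 1 to day 3 passed the threshold (0.49, adjusted p = 0.0461).

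**Figure D3:**
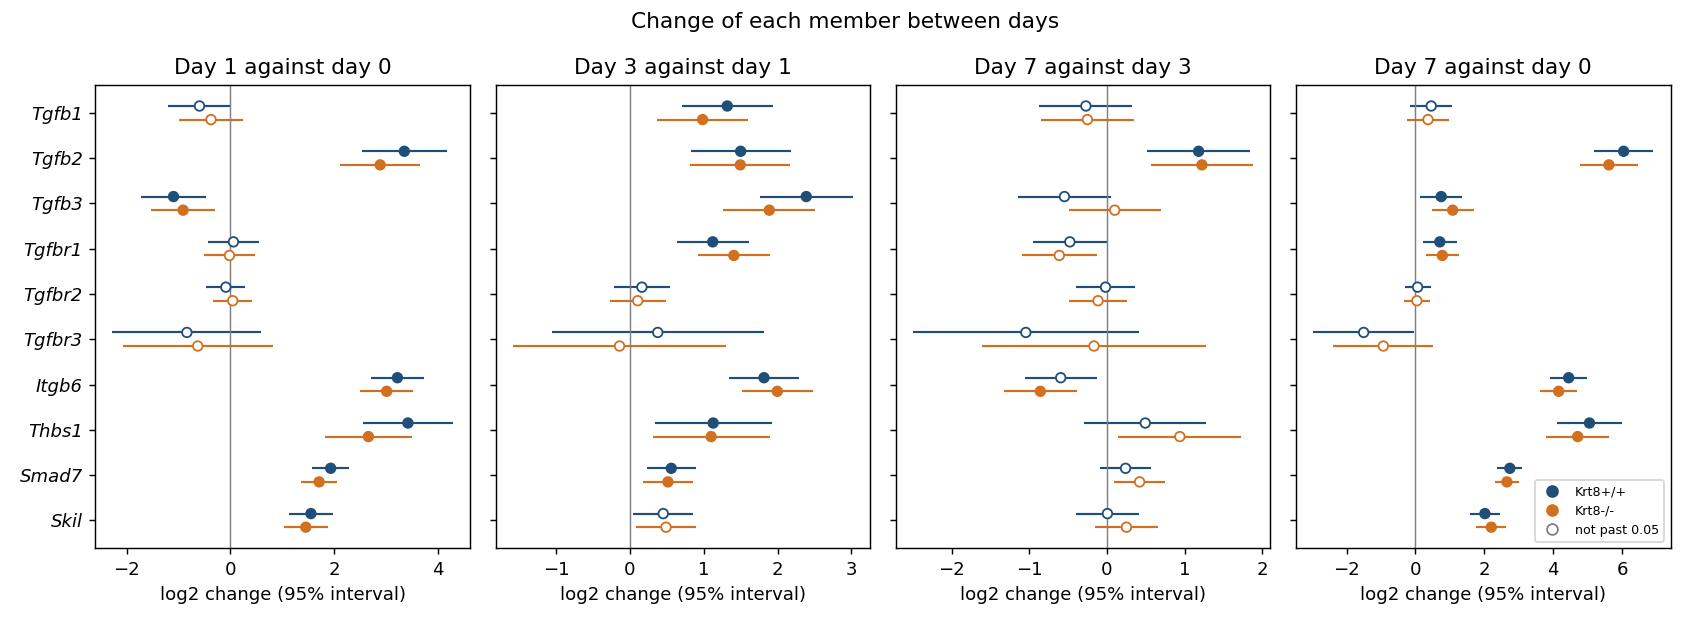
Log2 change of each member (x axis, with its 95% interval and its own scale in each panel) between the days named above each panel, in Krt8+/+ (blue) and Krt8-/- (orange) AECs. Filled points passed the threshold of 0.05 on the edgeR adjusted p, with 6 of 10 on day 1, 7 of 10 from day 1 to day 3, and 7 of 10 on day 7 compared with day 0 in each genotype. Of all 18046 tested genes, 9874, 4740, and 10611 passed in these comparisons in Krt8+/+ AECs, and 9131, 4252, and 10558 in Krt8-/- AECs.

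The members fell into patterns that crossed their roles. Over the 24 libraries, the log2 levels of Thbs1, Smad7, and Skil had Pearson r between 0.979 and 0.986, and Tgfb2 and Itgb6 had r of 0.965 and 0.952 with Smad7. Tgfb1 and Tgfb3 had an r of 0.823 with each other and of 0.317 and 0.406 with Smad7. These values are a description of 24 libraries that share days and replicates, and most of the variation among them was between days. Among 17065 genes, the 2 most like Itgb6 were Nt5e (r = 0.989), which encodes the ecto-nucleotidase CD73, and Anxa5 (r = 0.987), which encodes annexin A5. Those most like Tgfb2 were Igf2bp1 (r = 0.989) and Serpinb9b (r = 0.988), and those most like Smad7 were Rusc2 (r = 0.989) and Tnk2 (r = 0.988). Thbs1 was most like Iars (r = 0.989) and then Smad7, and Skil was most like Thbs1 and then Ube2j1 (r = 0.98). Less close matches were found for Tgfb1 (Fancd2 at r = 0.888 and Cdkn3 at 0.875), Tgfbr2 (Sun1 at 0.824 and Kdm5c at 0.82), and Tgfbr3 (Osmr at 0.821 and Crispld2 at 0.8). The match of Tgfb3 besides Col1a2 was Arfgap1 (r = 0.945).

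Of 53 other genes of the pathway, all tested, 36 were higher and 6 lower on day 7 than on day 0 in Krt8+/+ AECs, with a median log2 change of 2.05, and 35 were higher and 6 lower in Krt8-/- AECs. Of all tested genes, 28.6% were higher and 30.2% lower in this comparison in Krt8+/+ AECs, and 28.6% and 29.9% in Krt8-/- AECs. Among 19 genes of release and activation, 13 were higher and 1 lower in Krt8+/+ AECs, to which the values below also belong. The latent TGF-β–binding protein genes Ltbp2 and Ltbp1 went from 3.20 ± 0.583 and 5.90 ± 7.66 CPM (SD, n = 3) to 205 ± 90.1 and 248 ± 63.2 CPM, log2 changes of 6.00 and 5.29 (edgeR adjusted p = 3.69e-09 and 3.47e-06). Itgav, which encodes the αv partner of integrin β6 and was singled out after its values were seen, went from 75.8 ± 16.3 to 307 ± 44.2 CPM, a log2 change of 2.02 (adjusted p = 4.35e-07).

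Of 4 receptors and co-receptors outside the members, 3 were higher and 1 lower, beside 28.6% and 30.2% of all tested genes. Cd109, which encodes a TGF-β co-receptor, went from 1.80 ± 1.18 to 56.8 ± 46.5 CPM (log2 change 4.92, edgeR adjusted p = 5.69e-06). Its day 7 level thus had an SD close to the mean. The decoy receptor gene Bambi fell from 171 ± 42.8 to 8.96 ± 5.87 CPM (log2 change −4.25, adjusted p = 1.56e-06). None of the 3 SMAD genes that carry the signal, Smad2, Smad3, and Smad4, passed the threshold on day 7 (log2 changes −0.26, 0.27, and −0.07), with adjusted p = 0.0621, 0.434, and 0.723. Among 10 further feedback and negative regulators, 6 were higher and 2 lower, beside the same shares of all tested genes. They were led by Pmepa1 (3.58, adjusted p = 5.13e-11) and Ldlrad4 (2.63, adjusted p = 1.94e-07), which both encode inhibitors of SMAD activation.

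Of 17 TGF-β target genes, 14 were higher and 2 lower on day 7, beside 28.6% and 30.2% of all tested genes. On day 1, 9 were higher and 2 lower, beside 26.2% and 28.5% of all tested genes. Ccn2, which encodes connective tissue growth factor, went from 10.5 ± 8.56 to 3215 ± 201 CPM (log2 change 8.22, edgeR adjusted p = 1.82e-10). Lox, which encodes the collagen cross-linking enzyme lysyl oxidase, went from 4.92 ± 5.91 to 1554 ± 602 CPM (log2 change 8.19, adjusted p = 3.45e-08). Both are also made by fibroblasts, whose marker sum over these days is given above, and the part of those cells was not tested.

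The last comparison asked whether the pathway's transcripts depended on Krt8. On none of the 4 days did a member pass the threshold between Krt8-/- and Krt8+/+ AECs, beside 0.0277% of all genes on day 0 and 0.0166% on each of days 1, 3, and 7. Every adjusted p of edgeR was 1, 0 members had an unadjusted p under 0.05 on any day, and DESeq2 also called 0. The test of whether the genotype difference changed with the day called 0.00554% of all genes and 0 members (smallest unadjusted p = 0.418, for Thbs1). Of the 53 further pathway genes, 0 were called on any day.

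The largest difference of each day was that of Thbs1 on day 0 (log2 difference 0.55, 95% interval −0.24 to 1.35) and on day 1 (−0.21, −0.99 to 0.58), Tgfbr3 on day 3 (−0.68, −2.12 to 0.76), and Tgfb3 on day 7 (0.28, −0.32 to 0.87). Thbs1 on day 1 was 0.11 without replicate 1, and Tgfb3 on day 7 was −0.03 without replicate 3, both opposite in sign to the values with all replicates. Tgfb2 on day 0 differed by 0.51 (−0.37 to 1.40) at 19 to 67 counts per Krt8-/- library.

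Itgb6 was at a higher level in Krt8-/- AECs in 2 of 3 replicates on each day. Its log2 differences of days 0, 1, 3, and 7 were 0.39, 0.18, 0.36, and 0.10, with 95% intervals of −0.10 to 0.89, −0.28 to 0.65, −0.10 to 0.83, and −0.36 to 0.56, which all include 0. On day 7, 2 of the 10 members, Smad7 and Skil, did not overlap between genotypes, beside 5.54% of all tested genes. The Krt8+/+ libraries held 97.6 to 109 CPM of Smad7 and the Krt8-/- libraries 114 to 117 CPM, a log2 difference of 0.16 (−0.17 to 0.49), and Skil at 121 to 134 and 138 to 143 CPM, a difference of 0.13 (−0.27 to 0.54). On days 0, 1, and 3, 0 members separated the genotypes, beside 6.88%, 5.79%, and 11% of all tested genes. The sum of 4 club and ciliated markers on day 0 ranged over 4190–9720 CPM for the Krt8+/+ libraries and over 11800–17000 CPM for those lacking Krt8, and its part in the differences of day 0 was not tested. Over the 9 members other than Tgfbr3, the 95% intervals of the genotype difference lay between −1.02 (Thbs1, day 3) and 1.40 (Tgfb2, day 0).

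**Figure D4:**
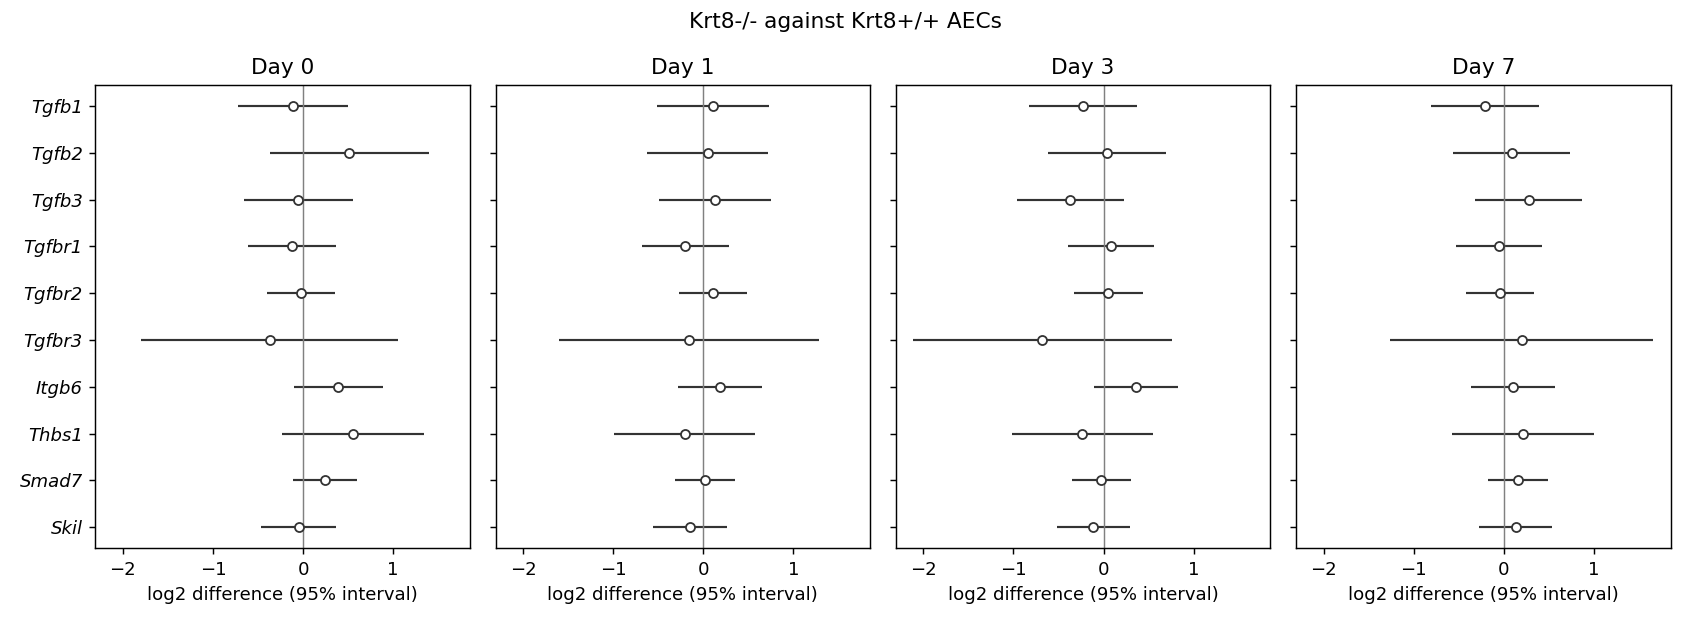
Log2 difference between Krt8-/- and Krt8+/+ AECs (x axis, with its 95% interval) for each member on days 0, 1, 3, and 7. Open points did not pass the threshold, and every interval includes 0, the widest being those of Tgfbr3.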

How the data were processed

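RNA of AECs from 3 replicates, 2 genotypes, and 4 days was sequenced, and the authors deposited 1 table of raw counts of reads per gene, without normalization. The submitters' processing notes name cutadapt 2.3, STAR 2.7.8a, RSEM 1.3.3, and GRCm38. Annotation release and strand setting: not given in the sources used here. Of 55426 rows, 5 stand for reporter genes and were left out of the members. Symbols, coordinates, and exon lengths came from GENCODE M21, and promoter windows from RefSeq (GRCm38.p6).

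Genes of low count were removed by filterByExpr (min.count 10 and min.total.count 15), and counts were scaled with TMM, and fitted in 1 quasi-likelihood model of 8 groups (edgeR 4.0.16, limma 3.58.1, R 4.3.3, 16 residual degrees of freedom). P values were adjusted by Benjamini-Hochberg over all 18046 genes. CPM used the TMM-scaled totals. Correlations used log2 CPM with a prior count of 2, and those with summed markers a pseudocount of 1. Alternatives were the size factors and the test of DESeq2 1.42.0, no filter, a block for replicate number, removal of each replicate in turn, and a fit of the 6 libraries compared. The replicate numbers pair libraries because each number stands for 1 code in the sample titles. Across genes, the deviations from the group means of such pairs correlated at −0.0345 to 0.548.

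The members, the pathway lists, the marker lists, and the tests were chosen with earlier results of these data known. In each pathway list, the 2 genes with the largest change on day 7 compared with day 0 in Krt8+/+ AECs, past 0.05, moving alike in every replicate and reaching 1 CPM in some group, were named, and for each member the 2 genes with the highest Pearson r. Those of Tgfbr1 are not reported here. On simulated counts for day 1 compared with day 0, with 17626 genes tested, edgeR recovered 39.6% of 2-fold and 71.7% of 4-fold changes, with 4 calls of unchanged genes. For Krt8-/- compared with Krt8+/+ on day 1, with 17588 genes tested, it recovered 37.4% and 70.5%, with 5 such calls. These simulations tested 96 and 99 genes with a 2-fold change and 99 and 95 with a 4-fold change. In the data, the same comparisons called 9874 and 3 genes. The cutoff of the adjustment depends on how many genes change, so the simulated rates need not carry over to the data. No pair of libraries within a group was identical (chi-square per gene 10.2 to 122). The edgeR p values test differences between group means against the spread between replicates, estimated over all 8 groups.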

Additional observations from a re-analysis of the deposited data

How the results depend on the processing

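The counts of members past the threshold stayed within 1.5 times under DESeq2 (its size factors or its test), with all genes kept, or with the replicate block. With the block, the count was 6 of 10 on day 1 compared with day 0 in Krt8+/+ AECs, as without it, and the 1 call it changed among the values given is that of Skil from day 1 to day 3 in Krt8-/- AECs (0.49). Leaving out replicates mattered more, and it also leaves fewer samples to estimate the spread. Over the 3 removals, the count ranged from 4 to 7 from day 1 to day 3 and was 0 to 0 from day 3 to day 7 in Krt8+/+ AECs, and in Krt8-/- AECs it ranged from 4 to 5 and from 0 to 1. A fit of only the 6 libraries compared called 5 members from day 3 to day 7 in Krt8-/- AECs in place of 2, and 5 in place of 7 from day 1 to day 3 in Krt8+/+ AECs, where Thbs1 (1.15, edgeR adjusted p = 0.0725) and Smad7 (0.56, adjusted p = 0.0534) were lost. It also lost Tgfb1 from day 1 to day 3 in Krt8-/- AECs (0.95, adjusted p = 0.0559). The cause was not tested. Differences near 0 changed sign when 1 replicate was removed. The log2 change of Tgfbr2 on day 7 compared with day 0 in Krt8-/- AECs ranged from −0.020 to 0.20, and the genotype difference ranged from −0.47 to 0.11 for Thbs1 on day 1, from −0.032 to 0.52 for Tgfb3 on day 7, and from −0.058 to 0.27 for Itgb6 on day 7. No member was called between genotypes under any alternative. Low counts limit Tgfb2 on day 0 (16 to 67 counts) and Tgfbr3. Of the 2-fold changes simulated for the genotype comparison of day 1, 37.4% were recovered. That rate need not carry over to the data, where far fewer genes were called.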
